A study of Homo sapiens with 6 samples.

Results

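A set of 9 rows of a gene count table, out of 59087 rows, was followed across wild-type (WT) HEK293T cells and a pair of THUMPD2 knockout lines, KO1 and KO2. The rows are NCAM1, NCAM1-AS1, JAKMIP2-AS1, CHRM3-AS2, AC027451.1, KCNV1, INSM1, NHLH2 and FSTL5. They were chosen by their read counts: earlier results of the same libraries had shown more reads in knockout cells on rows of neuronal genes, or on rows lying over such genes on the other strand. NCAM1-AS1 lies over NCAM1, JAKMIP2-AS1 over JAKMIP2, CHRM3-AS2 over CHRM3 and AC027451.1 over KCNV1. Because the difference between knockout and WT chose the rows, their values in that comparison are a description and carry no test.

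HEK293T is an established human embryonic kidney cell line. THUMPD2 belongs to the RNA methyltransferases and modifies a spliceosomal small nuclear RNA. Total RNA was sequenced, with no treatment named, in 6 libraries, 2 each of WT, of the line labelled KO#1 (KO1 here) and of the line labelled KO#2 (KO2). The labels do not say whether a knockout line is a clone, how the gene was disrupted, or whether replicates are separate cultures, and a p-value therefore reflects library-to-library spread that may be technical only. With 1 WT line, the loss of THUMPD2 and any other difference between a knockout line and the WT line cannot be told apart.

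The genes behind the 9 rows act at different steps of neuronal life. NCAM1 is an immunoglobulin-family adhesion molecule of neurons, also found on some other cells, that holds neighbouring cells together and takes part in neurite growth. INSM1 is a zinc-finger repressor of neuroendocrine and neuronal progenitors, and NHLH2 is a basic helix-loop-helix factor of developing neurons, a class of factor that binds the E-box. CHRM3 is an acetylcholine receptor that signals through Gq, KCNV1 is a modifier subunit of voltage-gated potassium channels, JAKMIP2 is a coiled-coil protein of the brain, and FSTL5 is a secreted member of the follistatin-like family. Many neuronal genes are kept low outside neurons by the repressor REST and its corepressors.

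Library totals in the count table ran from 7414339 to 8391143 reads, while the design text gives more than 240M reads. The library kit keeps the strand, and reads fell mostly on rows annotated on the strand opposite the expected gene. The row of GAPDH, a housekeeping enzyme, held 126 to 202 reads per library, whereas AC006064.4, which lies over it on the other strand, held 122213 to 142186. Of 1446 protein-coding genes with an antisense row over them and at least 60 reads on the pair, 1124 (77.7%) had more reads on the antisense row. The THUMPD2 row held 0 to 3 reads in every library, and no row was assigned to THUMPD2 on the other strand, so the knockout itself could not be checked. Replicates were separate libraries by their counts, since chi-square divided by its degrees of freedom was 2.32 for the WT pair, 3.62 for the KO1 pair and 2.19 for the KO2 pair.

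This strand pattern sets what each of the 9 rows can show. NCAM1-AS1, JAKMIP2-AS1, CHRM3-AS2 and AC027451.1 stand over neuronal genes, as AC006064.4 stands over GAPDH. The rows named NCAM1, INSM1, NHLH2, FSTL5 and KCNV1 collect, by the same pattern, reads of the strand opposite the gene whose name they bear, and what share of them came from that gene was not measured. No protein-coding gene lies opposite INSM1 or NHLH2 in GENCODE v29, and FSTL5 shares 619 exonic bases with the long non-coding gene AC104793.1. For the 4 rows over neuronal genes, what share of the reads came from the gene and what from an antisense transcript was likewise not measured, and the strand setting of the counting is not given in the sources used here.

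The rows with the most reads lie partly over coding sequence. JAKMIP2-AS1 (chr5:147559994-147662009, plus strand, GRCh38) has 2106 exonic bases, of which 524 lie over exons of JAKMIP2 (chr5:147585439-147782848, minus strand) and 523 of these over its coding part. Another 1438 bases lie over JAKMIP2 introns and 144 outside the gene. NCAM1-AS1 (chr11:113269532-113273901, minus strand) has 1198 exonic bases, of which 552 lie over exons of NCAM1 (chr11:112961247-113278436, plus strand), 333 of them coding, and 646 over introns. Shown here, as an example of what such a row covers, is the NCAM1 coding stretch at chr11:113273624-113273748 (plus strand, 125 bases), read 5′ to 3′ along the gene from a GENCODE v29 transcript.
NCAM1 coding stretch under NCAM1-AS1: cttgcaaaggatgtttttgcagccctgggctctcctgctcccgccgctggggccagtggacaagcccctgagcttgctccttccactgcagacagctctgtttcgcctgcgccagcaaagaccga

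The other rows differ from these in what they lie over. CHRM3-AS2 (chr1:239703381-239730465, minus strand) has 3888 exonic bases, but 269 of them lie over CHRM3 exons, none coding, and 3619 over CHRM3 introns. AC027451.1 (chr8:109973943-109974781, plus strand) has 553 exonic bases, all of them over exons of KCNV1 (chr8:109963645-109975847, minus strand) and 160 over its coding part. INSM1 lies at chr20:20368121-20370949 (plus strand), NHLH2 at chr1:115836377-115843917 (minus strand) and FSTL5 at chr4:161383897-162164035 (minus strand).

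**Figure D1:**
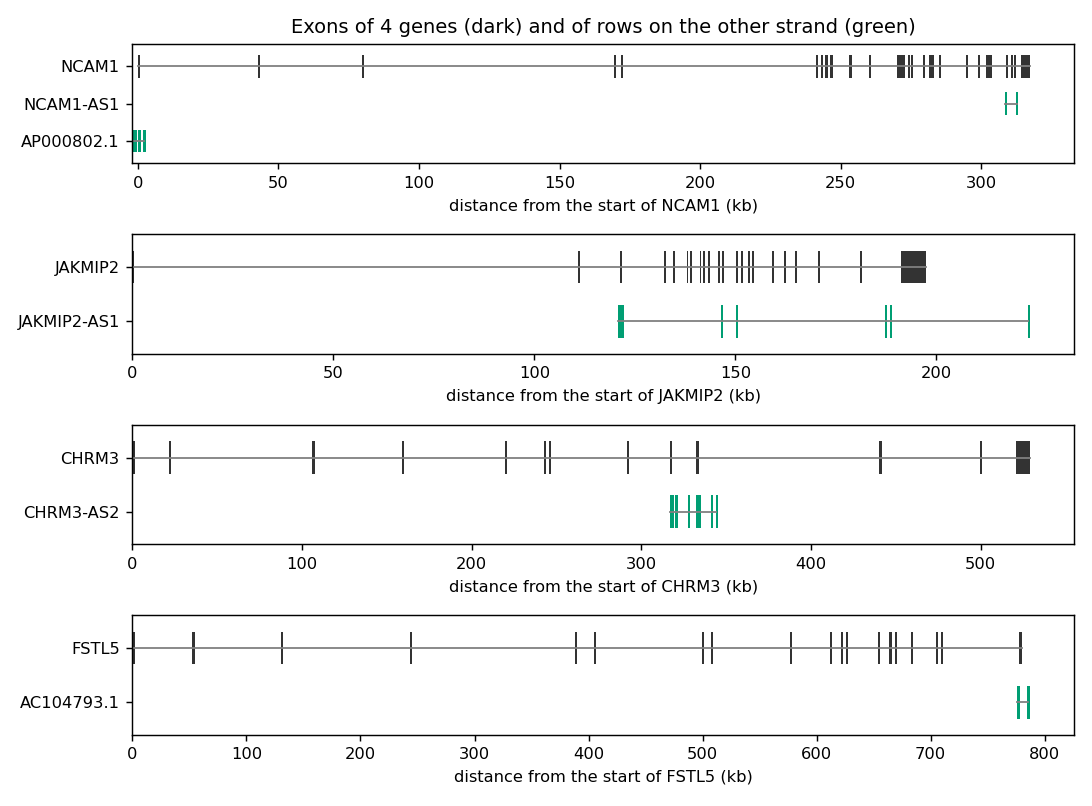
Exons of NCAM1, JAKMIP2, CHRM3 and FSTL5 (dark) and of rows on the other strand over them (green), by distance in kb from the start of the gene in its own direction, with thin lines joining exons of 1 gene. NCAM1-AS1 lies near the 3′ end of NCAM1 and AP000802.1 over its 5′ end, and JAKMIP2-AS1 runs past the 3′ end of JAKMIP2.

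Start-site sequences are shown for genes whose rows rose together or in 1 line. RefSeq promoters (GRCh38.p14) were found for 6 of 9 symbols searched, and the 250 bases before each start were scanned on both strands for the E-box CANNTG and for its form CAGCTG. Among 35116 promoters, 61.8% held the first and 14% the second, so a match is common, and every CAGCTG is also a CANNTG. JAKMIP2 held 1 match, of the form CAGCTG. CHRM3 held 2 matches, neither of that form, and FSTL5 held 2, of which 1 had it. NCAM1-AS1 held 1 match, of the form CAGCTG, and CHRM3-AS2 held 0. One NHLH2 window held 2 matches and the other 1, of the form CAGCTG. The stretches below, for JAKMIP2, CHRM3 and FSTL5, leave out bases that GENCODE places in exons, which removes the JAKMIP2 match and all of both NHLH2 windows, and mark CANNTG in capitals; they lie at chr5:147782849-147782978 (minus strand), chr1:239386318-239386564 (plus strand) and chr4:162164036-162164250 (minus strand).
JAKMIP2: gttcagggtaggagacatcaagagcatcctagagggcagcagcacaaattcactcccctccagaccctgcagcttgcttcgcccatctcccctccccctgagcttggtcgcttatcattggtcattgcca
CHRM3: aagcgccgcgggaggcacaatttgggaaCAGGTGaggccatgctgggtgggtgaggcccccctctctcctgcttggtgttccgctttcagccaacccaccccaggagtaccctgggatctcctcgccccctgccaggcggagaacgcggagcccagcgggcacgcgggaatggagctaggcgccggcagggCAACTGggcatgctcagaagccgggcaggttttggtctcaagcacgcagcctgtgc
FSTL5: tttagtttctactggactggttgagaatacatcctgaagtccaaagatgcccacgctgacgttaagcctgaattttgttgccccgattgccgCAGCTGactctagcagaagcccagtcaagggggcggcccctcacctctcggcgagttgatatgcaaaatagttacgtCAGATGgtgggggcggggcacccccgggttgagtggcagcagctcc

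At NCAM1, rows on both strands held many more reads in both knockout lines. NCAM1-AS1 held 29 and 23 reads from WT, 563 and 457 from KO1 and 608 and 522 from KO2. Every knockout library lay far above both WT libraries, and the ranges of the 2 knockout lines overlapped. In reads scaled to library size (CPM) the row stood at 3.40 ± 0.726 (SD, n = 2) in WT, 69.9 ± 7.38 in KO1 and 67.1 ± 9.65 in KO2, which is 20.7-fold and 19.8-fold the WT level. The fitted log2 fold change was 4.36 ± 0.17 (SE) in KO1 and 4.30 ± 0.17 in KO2.

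The NCAM1 row itself held 1 and 2 reads from WT, 40 and 34 from KO1 and 38 and 52 from KO2. The WT libraries were again apart from the knockout libraries, at far fewer reads than on NCAM1-AS1. From the summed reads the ratio to WT was 26.1 in KO1 (95% counting interval 8.58 to 129) and 27.3 in KO2 (9.06 to 135). Per kilobase of annotated exon, NCAM1-AS1 held 425.7 reads in KO1 and 471.6 in KO2 on average, whereas NCAM1 held 2.91 and 3.53. The difference between the lines was small on both rows: KO1 minus KO2 was 0.06 on the log2 scale for NCAM1-AS1 (95% interval -0.16 to 0.28) and -0.07 for NCAM1 (-0.73 to 0.60).

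A pair of rows at the ends of NCAM1, which were not among the 9, moved in the same direction. AP000802.1 (chr11:112959279-112963460, minus strand) lies over the 5′ end of NCAM1 with 151 shared exonic bases and held 9 and 6 reads from WT, 73 and 79 from KO1 and 92 and 81 from KO2. AP000880.1 (chr11:113278437-113314437, minus strand) abuts the 3′ end of NCAM1 with its own 3′ end. AP000880.1 held 13 and 3 reads from WT, 70 and 57 from KO1 and 61 and 74 from KO2. On both rows the WT and knockout libraries did not overlap. AP000802.1 rose by 3.40 ± 0.34 (log2, SE) in KO1 and by 3.37 ± 0.34 in KO2, with adjusted p = 6.96e-10 and 5.01e-10 in the edgeR quasi-likelihood test with Benjamini-Hochberg adjustment over 14184 tested rows. AP000880.1 rose by 3.04 ± 0.39 and 2.92 ± 0.39 (adjusted p = 1e-07 and 1.75e-07, same test), or by 4.47 and 4.35 without WT replicate 1 and by 2.30 and 2.18 without WT replicate 2. Neither row differed detectably between the lines, with KO1 minus KO2 at 0.03 (95% interval -0.45 to 0.50) and 0.13 (-0.44 to 0.69). These rows share the NCAM1 locus with the rows chosen for their gain and the WT libraries with each other, so they are not separate loci.

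JAKMIP2-AS1 had almost no reads in WT and many in both knockout lines. It held 0 and 2 reads from WT, 336 and 370 from KO1 and 437 and 481 from KO2. All 4 knockout libraries lay above both WT libraries, and both KO2 libraries had more reads than both KO1 libraries. The ratio to WT was 373 in KO1 (95% counting interval 103 to 3087) and 418 in KO2 (115 to 3458). Both WT reads came from WT replicate 2: without WT replicate 1 the fitted log2 fold changes were 7.51 and 7.67, and without WT replicate 2, when no WT read was left, 11.56 and 11.72. Scaled to library size the lines were close, at 48.6 ± 5.33 CPM (SD, n = 2) in KO1 and 54.3 ± 1.70 in KO2, and KO1 minus KO2 was -0.16 on the log2 scale (95% interval -0.41 to 0.08).

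The JAKMIP2 row, on the strand opposite to that of JAKMIP2-AS1, held 0 and 0 reads from WT, 2 and 0 from KO1 and 1 and 3 from KO2, and did not pass the filter on low counts. Per kilobase of exon, JAKMIP2-AS1 held 167.6 reads in KO1 and 217.9 in KO2, against 0.108 and 0.216 on JAKMIP2. The next row to rise in the neighbourhood was that of SPINK5, a serine protease inhibitor of epithelia, 242.8 kb away. By the strand pattern, this row need not give the level of SPINK5 itself. SPINK5 held 0 and 0 reads from WT, 40 and 33 from KO1 and 51 and 35 from KO2. Against 3 reads over the WT group this is at least 25.7-fold higher in KO1 and at least 26.1-fold higher in KO2 (edgeR quasi-likelihood, Benjamini-Hochberg adjusted p = 1.17e-08 and 6.24e-09). Of 3 rows tested within 1 Mb of JAKMIP2 besides JAKMIP2-AS1, SPINK5 was the 1 called in either line.

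CHRM3-AS2 was a low row that was absent from the WT counts. It held 0 and 0 reads from WT, 9 and 24 from KO1 and 19 and 16 from KO2. WT and knockout libraries did not overlap, and the 2 KO1 libraries spanned both KO2 libraries. Against 3 reads over the WT group the row was at least 11.6-fold higher in KO1 and at least 10.6-fold higher in KO2. The KO1 bound was 6.16 without KO1 replicate 2, which held most KO1 reads, and 17.4 without KO1 replicate 1. KO1 minus KO2 was 0.14 on the log2 scale with a wide 95% interval, -0.97 to 1.24, and -0.78 without KO1 replicate 2.

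Other rows at CHRM3 held few reads. CHRM3 held 1 and 0 reads from WT, 4 and 2 from KO1 and 2 and 6 from KO2. CHRM3-AS1, over a CHRM3 intron, held 0 and 0, then 8 and 4, then 3 and 3, and AL356361.2, at the 3′ end of the gene, held 0 and 0, then 3 and 0, then 2 and 2. These rows did not pass the filter, so they carry no test.

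Rows around CHRM3 were also higher in knockout cells over a wide stretch. Within 5 Mb, 35 other rows were tested. Of these, 15 were higher in KO1, 18 higher and 2 lower in KO2, and 11 higher in both lines. Over all tested rows, 10.4% were higher in KO1, 13.6% higher and 15.4% lower in KO2, and 5.79% higher in both. The median log2 fold changes around CHRM3 were 0.77 in KO1 and 0.92 in KO2. The medians over all tested rows were 0.011 and 0.022. AL359918.2, which has 148 bases over coding exons of the neuronal actin nucleator FMN2, held 35 and 60 reads from WT, 100 and 92 from KO1 and 132 and 124 from KO2 and rose by 1.10 ± 0.23 and 1.30 ± 0.22 (edgeR quasi-likelihood, Benjamini-Hochberg adjusted p = 0.000378 and 1.73e-05). With the 5 Mb median subtracted, the fitted log2 fold change of CHRM3-AS2 was 6.4 in place of 7.17 in KO1 and 6.11 in place of 7.03 in KO2, values that depend on the prior count because no WT read was counted. At the other loci the 5 Mb medians lay between 0.07 and 0.25 in KO1 and between -0.55 and 0.38 in KO2. The lowest was that of FSTL5 in KO2, where 5 of 10 tested rows were lower, against 15.4% of all tested rows.

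**Figure D2:**
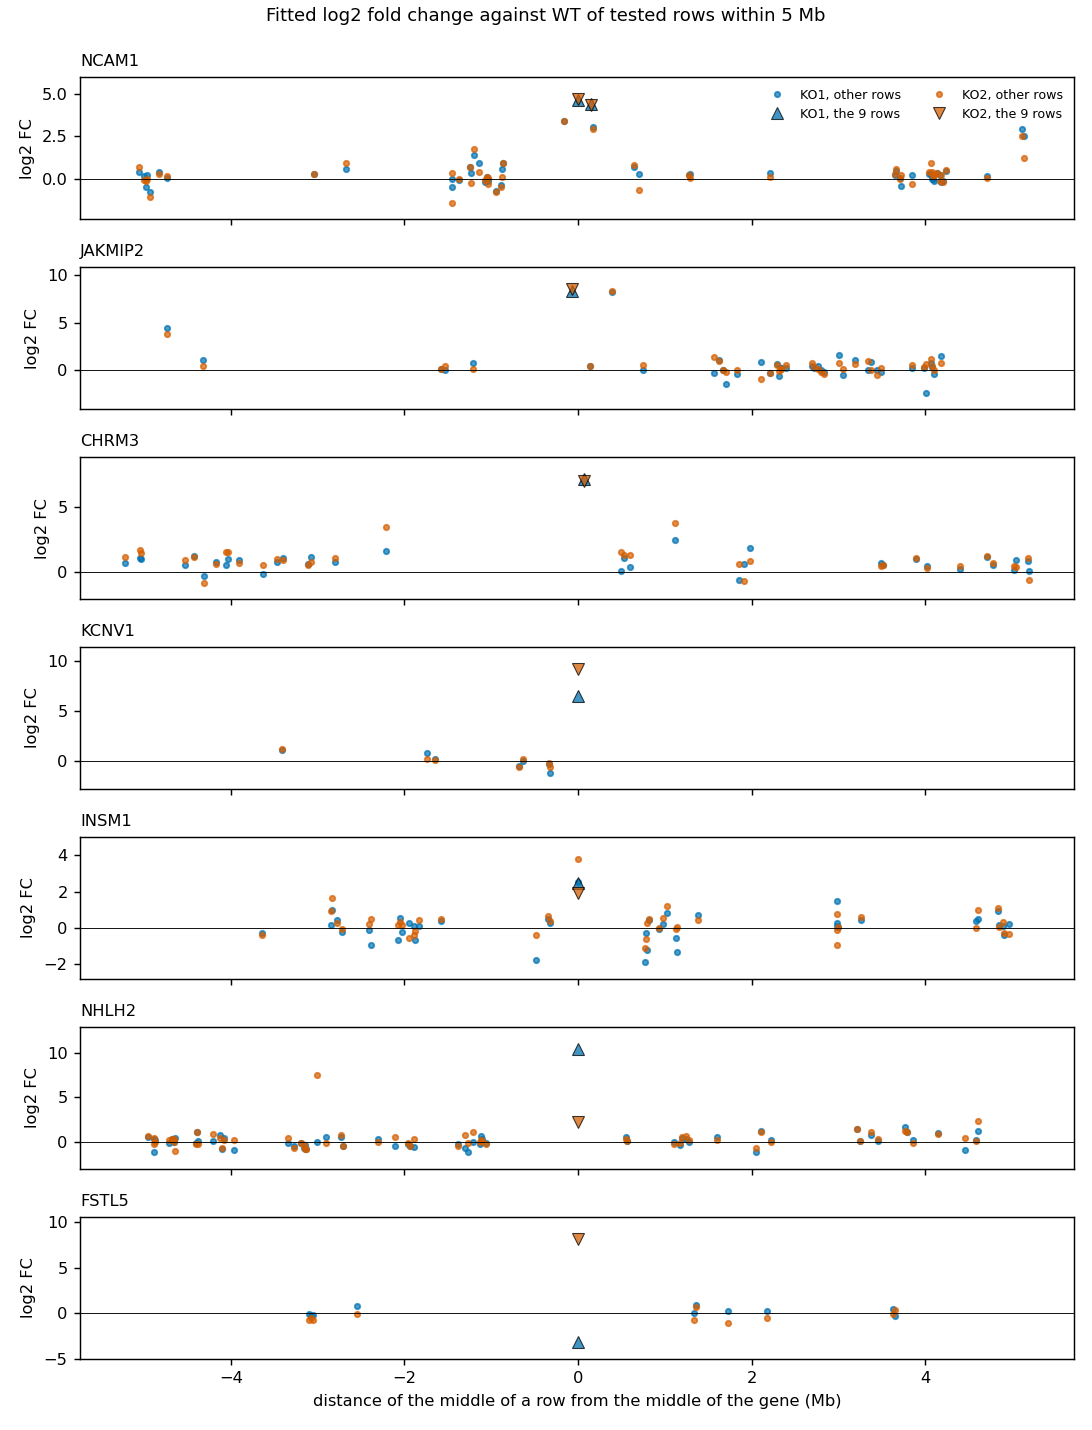
Fitted log2 fold change against WT of tested rows within 5 Mb of 7 genes, by distance in Mb between the middles of row and gene, with KO1 in blue and KO2 in orange and the 9 rows as triangles. Around CHRM3 the medians of the neighbours are 0.77 and 0.92, around FSTL5 the KO2 median is -0.55, and fitted values of rows with no WT reads depend on the prior count.

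AC027451.1, which lies wholly over KCNV1 exons, was gained in both lines but to different levels. It held 0 and 0 reads from WT, 16 and 5 from KO1 and 75 and 79 from KO2. WT, KO1 and KO2 did not overlap, with KO2 highest. Against 3 reads over the WT group it was at least 7.40-fold higher in KO1 and at least 46.8-fold higher in KO2, and KO2 stood at 6.32 times KO1 in CPM. The KO1 bound was 3.63 without KO1 replicate 1, which held most KO1 reads, and 10.95 without KO1 replicate 2. Fitted KO1 minus KO2 was -2.65 on the log2 scale, and -3.66 without KO1 replicate 1. The KCNV1 row held 1 and 0 reads from WT, 0 and 0 from KO1 and 1 and 0 from KO2, did not pass the filter, and showed no gain. None of the 4 other tested rows within 1 Mb was higher in either line.

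INSM1 showed a gain that rests on few reads. The row held 7 and 0 reads from WT, 24 and 14 from KO1 and 11 and 19 from KO2. The knockout libraries all had more reads than either WT library, but WT replicate 1 lay closer to the lowest knockout library than to WT replicate 2. The ratio to WT was 5.74 in KO1 (95% counting interval 2.53 to 15.2) and 3.90 in KO2 (1.68 to 10.5), and both rest on WT replicate 1, which held every WT read. The fitted log2 fold changes of 2.46 ± 0.71 and 1.91 ± 0.74 became 7.37 and 6.82 without that library, values set by the prior count because no WT read is left, and 1.44 and 0.90 without WT replicate 2. KO1 minus KO2 was 0.55 (95% interval -0.60 to 1.70).

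AL161658.1, a row 2.5 kb from INSM1 on the same strand and not among the 9, held 0 and 2 reads from WT, 7 and 5 from KO1 and 15 and 19 from KO2. Its log2 fold change was 3.80 in KO2 (edgeR quasi-likelihood, Benjamini-Hochberg adjusted p = 0.00125) and 2.53 in KO1, which did not pass (adjusted p = 0.0791). Without WT replicate 1 the values were 2.92 in KO2 and 1.65 in KO1. Without WT replicate 2, which held both WT reads, they were 6.98 and 5.70.

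NHLH2 and FSTL5 each appeared in 1 line. NHLH2 held 0 and 0 reads from WT, 172 and 154 from KO1 and 1 and 0 from KO2. Both KO1 libraries stood far above the other 4, which held 1 read between them. NHLH2 was at least 115-fold higher in KO1 than in WT, with 3 reads taken over the WT group, and KO1 stood at 378 times KO2 (95% counting interval 67.4 to 14980). That ratio rests on 1 read of KO2 replicate 1: fitted KO1 minus KO2 was 10.43 on the log2 scale without that library, when no KO2 read was left, and 7.34 without KO2 replicate 2. Of all tested rows, NHLH2 was the 1 row (0.00705%) with at most 2 reads in each WT and KO2 library and at least 100 in both KO1 libraries, a limit set with its values known.

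FSTL5 showed the reverse arrangement. It held 2 and 0 reads from WT, 0 and 0 from KO1 and 362 and 347 from KO2. The KO2 libraries were far above all others, and no KO1 read was counted. The ratio of KO2 to WT was 323 (95% counting interval 89.1 to 2672) and rests on 2 reads of WT replicate 1. The fitted log2 fold change of 8.17 became 11.37 without that library, when no WT read was left, and 7.20 without WT replicate 2. KO2 was at least 204-fold higher than KO1, with 3 reads taken over the KO1 group. At the same limits turned round, FSTL5 was 1 of 3 rows (0.0212%) seen in KO2 alone. AC104793.1, which overlaps the 3′ end of FSTL5 on the other strand, held 0 and 0 reads from WT, 0 and 3 from KO1 and 2 and 1 from KO2.

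**Figure D3:**
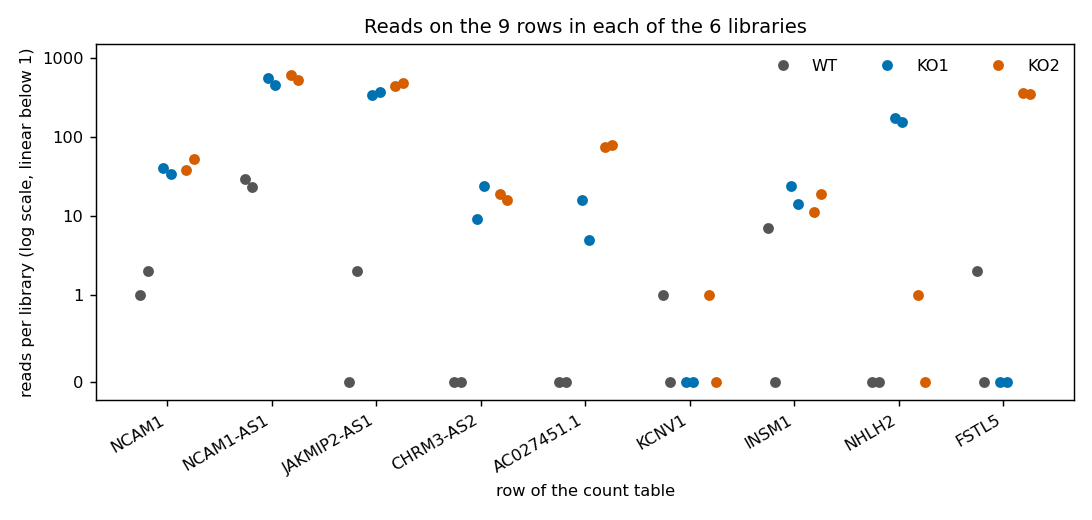
Reads in each of the 6 libraries on the 9 rows, on a log axis that is linear below 1, with 2 points per group (WT grey, KO1 blue, KO2 orange). NHLH2 is high in KO1 alone (172 and 154 reads), FSTL5 in KO2 alone (362 and 347), and KCNV1 stays at 0 or 1 read.

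In all, 8 of the 9 rows passed the filter on low counts, which a row could pass through the group where it was high. In 6 of the 9, all 4 knockout libraries lay above both WT libraries in CPM, an arrangement found in 17.4% of tested rows, and the same 6 were called higher in both lines, as were 5.79% of tested rows. Since this contrast chose the rows, nothing is read from these counts. KO1 called 10.4% of tested rows higher and 13.3% lower, and KO2 13.6% and 15.4%, and the 2 lines differed from each other in 20.4% of tested rows. The authors' deposited table, which compares the 4 knockout libraries with the 2 WT libraries, listed 4 of the 9 rows. It gave log2 fold changes of 4.36 for NCAM1-AS1 (q-value 0.000111), 4.41 for NCAM1 (0.00346), 8.48 for JAKMIP2-AS1 (0.000739) and 5.86 for AC027451.1 (0.202). As these are bulk libraries, more cells carrying a transcript and more of it per cell cannot be told apart.

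The label of a neuronal gain was checked against 8 defining neuronal markers, none of which has an assigned row on the other strand. Their own rows summed to 33.7 to 40.8 CPM in WT, 32.4 to 37.4 in KO1 and 48.5 to 52.1 in KO2, and none was called in both lines. RBFOX3, the neuronal nuclear antigen, made up most of the sum, with 208 and 249 reads from WT, 236 and 163 from KO1 and 346 and 397 from KO2, and rose in KO2 by 0.57 (edgeR quasi-likelihood, Benjamini-Hochberg adjusted p = 0.000909). DCX, MAP2, STMN2 and SNAP25, markers of migrating and mature neurons, held 0 to 2 reads in every library. Of the 3 markers tested, SYP and SYN1 were called in neither line. By the strand pattern given above, own rows need not give the level of the gene they are named for, so these rows do not settle whether neuronal markers are expressed, and the 9 rows are named by their genes and not by a cell type.

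Rows of marker lists of other cell types differed between the groups. By the strand pattern, own rows such as those of GFAP and SOX10 need not give the level of the gene they are named for. CCDC103 is the row over GFAP. The 10 glial rows summed to 62.8 to 66.2 CPM in WT, 39.6 to 43.6 in KO1 and 42.8 to 48.1 in KO2, with S100B at 0, and rows over 4 glial markers to 258 to 268, 199 to 230 and 177 to 191 CPM. Most of the first sum was GFAP, an astrocyte filament, which stood at 49.95 ± 1.84 CPM (SD, n = 2) in WT, 24.8 ± 3.36 in KO1 and 24.6 ± 0.815 in KO2. SOX10, a factor of oligodendrocytes and neural crest, went the other way and rose by 0.88 in KO1 and 1.12 in KO2 (edgeR quasi-likelihood, Benjamini-Hochberg adjusted p = 0.00515 and 0.000198), with the KO1 call lost without WT replicate 2 (0.76, 0.0582). The 10 kidney rows summed to 29.1 to 32.4, 19.1 to 22.0 and 15.2 to 17.5 CPM, with LHX1 at 0, and rows over 4 of them to 30.9 to 31.6, 58.1 to 59.5 and 17.3 to 19.97. The 8 fibroblast rows stayed at 3.20 to 4.45 CPM in all groups. The 7 blood rows summed to 34.9 to 40.3, 19.1 to 20.4 and 27.8 to 34.9 CPM, with HBG1 at 0. The part of these shifts in the values of the 9 rows was not tested.

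Genes of the pathways around the 9 rows were described from 10 lists holding 244 genes, read both by their own row and by an assigned row over them. By own row, 98 genes outside the 9 were tested, of which 7 (7.14%) were higher and 2 (2.04%) lower in both lines, against 5.79% and 7.72% of all tested rows. The median log2 fold changes were 0.07 in KO1 and 0.15 in KO2. By the strand pattern, a change on an own row need not be a change of the gene it is named for. By the row over the gene, 30 were tested, of which 7 (23.3%) were higher and 4 (13.3%) lower in both lines, against 8.14% and 14.8% of rows over 1 protein-coding gene, with medians of 0.00 and 0.15. Adjusted p-values below come from the edgeR quasi-likelihood test with Benjamini-Hochberg adjustment over all 14184 tested rows.

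Among neuronal transcription factors, INSM1 and NHLH2 aside, SOX4 and POU3F2 rose by own row. AL512380.2 lies on the strand opposite SOX4, a factor of neural progenitors, with 168 of its 1780 exonic bases over the SOX4 exon. AL512380.2 held 1325 and 1284 reads from WT, 3246 and 3085 from KO1 and 2954 and 3089 from KO2. That row rose by 1.36 ± 0.07 in KO1 and 1.08 ± 0.07 in KO2 (adjusted p = 4.46e-18 and 2.21e-15), and the SOX4 row rose by 2.13 and 1.89 (1.03e-08 and 9.27e-08). AL445209.1, over the sensory neuron factor POU4F1, fell by 1.42 and by 0.94 (3.72e-14 and 3.02e-10), and AL354950.2, over EBF3, fell by 0.53 and by 0.60 (0.000324 and 4.13e-05). These rows therefore did not move 1 way, and what share of their reads came from the factors was not measured.

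The other calls among the factors were less firm. POU3F2 rose by 0.89 and 0.94 (adjusted p = 0.0475 and 0.0252), but without WT replicate 1 the adjusted p was 0.191 in KO1 and 0.127 in KO2, without WT replicate 2 it was 0.0905 and 0.0531, without KO1 replicate 1 or 2 it was 0.0675 or 0.19 in KO1, and without KO2 replicate 1 it was 0.244 in KO2. The KO1 call was also lost with DESeq2, limma-voom, either other filter or the compared libraries alone (0.0508 to 0.177), and the KO2 call with DESeq2 (0.135) or no filter (0.0556). ELP4, which shares 5241 bases with PAX6, rose by 0.21 and 0.53 (0.0424 and 7.38e-07), and the KO1 call was lost without any 1 of the 6 libraries (0.0557 to 0.397) and with DESeq2, limma-voom, no filter or the compared libraries alone (0.0639 to 0.113). PROX1-AS1, over PROX1, stood at 2.54 and 2.19 and was called in both lines; it is named outside the rule, after its values were seen. Its KO2 call was lost without KO2 replicate 2 (1.98, 0.103) or WT replicate 1 (1.83, 0.107), and with DESeq2 (0.0618) or limma-voom (0.0501).

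REST, the repressor of neuronal genes, moved by small amounts in opposite directions on its own row. The row held 841 and 939 reads from WT, 1058 and 980 from KO1 and 761 and 848 from KO2. In CPM the groups did not overlap: KO1 stood at 139.9 ± 1.75 (SD, n = 2), WT at 115.6 ± 3.05 and KO2 at 95.2 ± 3.80. The log2 fold change was 0.28 ± 0.08 in KO1 (adjusted p = 0.00573) and -0.28 ± 0.08 in KO2 (0.00457). The KO1 call was lost without WT replicate 1 (0.25, adjusted p = 0.097), and the KO2 call without KO2 replicate 1 (-0.23, 0.107) or WT replicate 2 (-0.25, 0.0707). As the row shares 23 exonic bases with NOA1 on the other strand and no row was assigned to REST, the level of the REST transcript itself was not read.

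Of the REST corepressor list, 18 of 20 genes were tested by own row, and 1, KDM1A, was called in both lines. KDM1A, a histone demethylase, fell by 0.55 and by 0.92 (adjusted p = 0.0388 and 0.000437); the KO1 call was lost without KO1 replicate 2 (-0.48, 0.167), and both were lost without WT replicate 2 (-0.23, 0.586 and -0.60, 0.0632). The KO1 call was also lost with DESeq2, limma-voom or upper-quartile factors (0.0526 to 0.164). By the row over the gene, 2 of 4 rose in both lines. One was EHMT2-AS1, over the histone methyltransferase EHMT2, which rose by 0.39 and 0.27 (2.58e-06 and 0.000407).

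Own rows of neural adhesion molecules mostly held too few reads to test: 5 of 30 passed the filter, NCAM1 among them. By the strand pattern, this need not give the level of the genes. NFASC, an adhesion molecule of the axon initial segment and node, held 27 and 22 reads from WT, 60 and 79 from KO1 and 124 and 113 from KO2. The groups did not overlap and KO2 was highest. The NFASC row rose by 1.58 ± 0.28 in KO1 and 2.13 ± 0.26 in KO2 (adjusted p = 3.06e-05 and 3.51e-08). AC100793.3, over the paranodal protein CNTNAP1, fell by 1.00 and by 1.11 (0.000265 and 4.38e-05).

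Genes that modify NCAM1 or signal from it showed no own row called in either line among 9 tested. FGFR1, the growth factor receptor that NCAM1 can engage, had log2 fold changes of 0.35 and 0.42 (adjusted p = 0.246 and 0.133), and PTK2, a focal adhesion kinase, 0.81 and 0.60 (0.226 and 0.372). AC087623.1, over FGFR1, rose by 0.35 and 0.27 (0.00047 and 0.00443), the KO2 call being lost without WT replicate 1 (0.23, adjusted p = 0.117).

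In the muscarinic and Gq list, 10 of 25 own rows were tested and 2 rose in both lines. CHRNA3, a nicotinic receptor subunit that shares 198 exonic bases with CHRNA5, rose by 0.88 and 0.40 (adjusted p = 1.87e-09 and 0.00113), and AC027228.2, over CHRNA5, by 0.65 and 0.45 (6.95e-10 and 8.83e-07). ITPR3, an inositol trisphosphate receptor, shares 1025 exonic bases with UQCC2. The ITPR3 row rose by 0.31 and 0.83 (0.00458 and 1.99e-10), with the KO1 call lost without KO1 replicate 1 (0.24, 0.0504), whereas UQCC2, the row over ITPR3, fell by 0.83 and by 0.81 (1.84e-10 and 1.61e-10).

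Among voltage-gated potassium channel subunits, KCNV2, the other member of the KCNV family, was the 1 of 15 tested own rows that rose in both lines. KCNV2 held 21 and 29 reads from WT, 49 and 64 from KO1 and 111 and 67 from KO2, with no overlap between WT and knockout libraries. It rose by 1.26 ± 0.31 and 1.70 ± 0.30 (adjusted p = 0.00235 and 2e-05). AL050404.1, over KCNG1, stood at -0.03 in KO1 (0.844) and fell by 0.29 in KO2 (0.00179).

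The JAKMIP list had no own row called in both lines among 4 tested. KCTD12, an auxiliary subunit of the GABA-B receptor, stood at 0.33 in KO1 (adjusted p = 0.373) and rose by 1.34 in KO2 (9.38e-06), and JAK1 stood at -0.25 and 0.03 (0.481 and 0.951). In the follistatin-like list, FSTL3, an activin-binding glycoprotein, fell by 0.58 and by 0.77 (0.00583 and 0.000195), the KO1 call being lost without KO1 replicate 1 (-0.48, 0.0653) or WT replicate 2 (-0.51, 0.0623). CLMAT3, over the matrix protein gene SPARC, held 150 and 122 reads from WT, 27 and 23 from KO1 and 224 and 249 from KO2. It fell by 2.36 in KO1 (3.4e-10) and rose by 0.66 in KO2 (0.00272), with the KO2 call lost without WT replicate 2 (0.47, 0.105). AC009480.1, over the activin receptor gene ACVR2A, rose by 0.41 in KO1 (0.0387), a call lost without either KO1 library (0.106 each), WT replicate 1 (0.162) or WT replicate 2 (0.1), with DESeq2 (0.139) or with no filter (0.0548), and stood at 0.19 in KO2 (0.375).

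Pan-neuronal and neuroendocrine markers moved little in common between the lines. Of 17 pan-neuronal own rows tested, 1 was called in both lines: CRMP1, a mediator of axon guidance, which rose by 0.20 and 0.42 (adjusted p = 0.0447 and 1.15e-05), with the KO1 call lost without any library but KO1 replicate 2 (0.0701 to 0.285) and with DESeq2, limma-voom, either other filter or the compared libraries alone (0.0516 to 0.0972). AC107373.2, over the neurofilament gene NEFL, stood at 0.87 in KO1 (0.216) and rose by 1.78 in KO2 (0.00191). Of the 17 own rows, 2 were called higher and 3 lower in KO1, against 10.4% and 13.3% of all tested rows. In KO2, 5 were higher and 0 lower, against 13.6% and 15.4%. The own row of the neurofilament gene NEFM stood at -2.48 in KO1 and 2.65 in KO2, and AF106564.1, over NEFM, at -3.32 and 2.995. Both rows are named outside the rule, after their values were seen, and are given as values only. Of 4 neuroendocrine own rows tested, none was called in both lines. DBH, which makes noradrenaline, fell by 1.92 in KO1 (0.00777; -2.82 without KO1 replicate 2), a call lost without KO1 replicate 1 (-1.36, 0.117) or WT replicate 2 (-1.74, 0.0599), and stood at -0.07 in KO2 (0.933). PCSK1N stood at 0.33 and 0.27 (0.559 and 0.622).

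**Figure D4:**
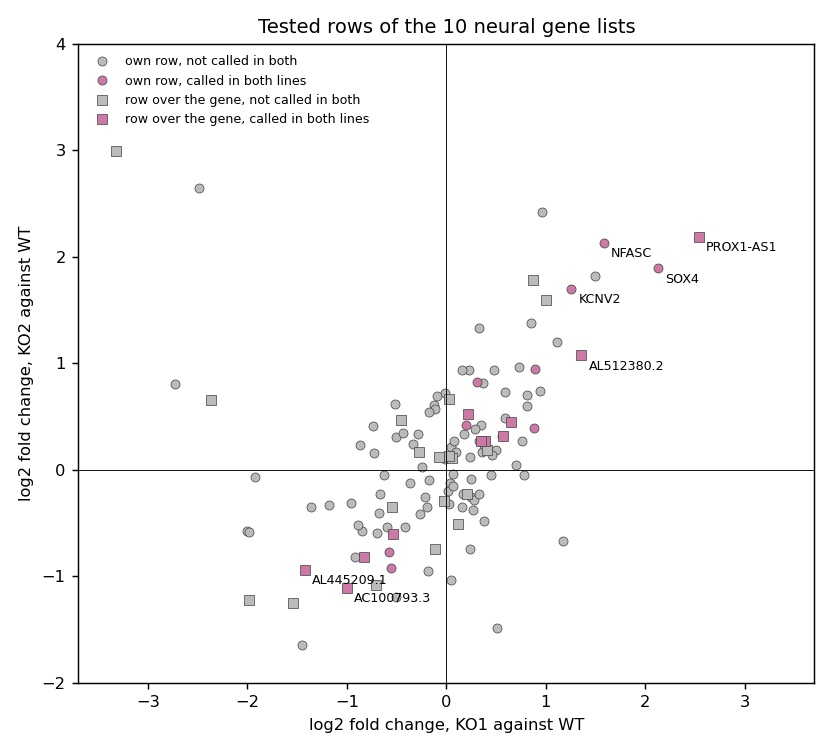
Log2 fold change against WT in KO1 (horizontal) and KO2 (vertical) of tested rows of the 10 neural gene lists without the 9 rows, with own rows as circles, rows over a gene as squares and those called in both lines in pink. Pink points lie in both directions, with SOX4, NFASC, KCNV2 and PROX1-AS1 at the upper right and AL445209.1 and AC100793.3 at the lower left.

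The rows most like 4 of the 9 across the 6 libraries were found by Euclidean distance of log2 CPM centred on the WT mean. Distances of rows with few or no WT reads depend on the prior count of 2. Closest to NCAM1-AS1 were SPINK5 (distance 0.43), MAF (0.81) and THBS2 (1.06). SPINK5 and THBS2 had no WT reads, and their fitted log2 fold changes were 8.29 and 7.63 in KO1 and 8.32 and 8.26 in KO2. Those of NCAM1-AS1 were 4.36 and 4.30, so the nearness of SPINK5 and THBS2 rests on the prior count. MAF, a leucine zipper factor, held 17 and 13 reads from WT, 240 and 198 from KO1 and 329 and 416 from KO2. Closest to JAKMIP2-AS1 were GPR39 (1.08), SLC8A1-AS1 (2.19) and CCDC152 (2.34). SLC8A1-AS1 (chr2:39786453-40255209, plus strand) lies near the knocked-out gene THUMPD2 (chr2:39736060-39779267, minus strand). SLC8A1-AS1 held 0 and 0 reads from WT, 191 and 229 from KO1 and 110 and 127 from KO2, and whether its place beside THUMPD2 bears on these values was not tested. GPR39, a zinc receptor whose row shares 1180 exonic bases with LYPD1, held 19 and 28 reads from WT, 2616 and 2775 from KO1 and 2477 and 2779 from KO2.

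The rows like NHLH2 were less close than those like FSTL5. For NHLH2 they were ZFHX4-AS1 (4.97), HHIP-AS1 (5.09) and LYPD1 (5.43). ZFHX4-AS1 held 4 and 7 reads from WT, 58 and 54 from KO1 and 5 and 2 from KO2, so it too was high in KO1 alone. HHIP-AS1 held 30 and 27 reads from WT, 257 and 288 from KO1 and 112 and 126 from KO2. LYPD1 held 1 and 0, then 23 and 36, then 16 and 20, so HHIP-AS1 and LYPD1 stood above WT in KO2 as well. For FSTL5 the nearest rows were PPP4R1L (0.90), CD44-AS1 (2.68) and ANKRD60 (3.27). PPP4R1L held 1 and 1 reads from WT, 1 and 0 from KO1 and 344 and 375 from KO2, and ANKRD60, its neighbour on chromosome 20, held 0 in WT and KO1 and 49 and 56 in KO2.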

How the data were processed

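The 9 rows and the gene lists were chosen with earlier results of these data known. Read counts were deposited by the authors as whole numbers, without normalization. The authors also deposited FPKM values, divided by a gene size that differed from the annotated length for 3 of the 4 rows listed, and these were not used. The authors' deposited table further gave log2 fold changes, p-values and q-values, printed only where it is named. The submitters' processing notes list STAR 2.7.1a, HTSeq 0.6.1p1, Trim Galore and limma, and the builds hg38 and GRCh38.p6. Annotation version and strand setting are not given there.

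Counts entered the quasi-likelihood F test of edgeR 4.0.16 (R 4.3.3), scaled by TMM. Of 59087 rows, 14184 passed filterByExpr. The fit held 3 groups and 6 libraries with 3 residual and 31.9 prior degrees of freedom, and a call needed a Benjamini-Hochberg adjusted p below 0.05. A call in both lines needed each line to pass with the same sign. The test was tried on simulated data with changes placed only in rows with many reads and the same spread for every row. That check therefore does not cover rows with few reads, and its values are not given here. Rows were placed with GENCODE v29 and assigned to an opposite-strand gene if they shared 100 or more exonic bases with it, and 80% or more of their opposite-strand overlap. Where a group had no reads, a lower bound on the fold took 3 reads for that group. Counting intervals (95%) and bounds express counting error alone, and PCR copies of 1 molecule are not told apart. The 95% intervals of KO1 minus KO2 come from the edgeR fit and include its estimate of the spread between libraries.

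Named rows were the 9, the genes opposite them, REST, and per list up to 4 rows called in both lines by smallest p, or else the 2 of smallest p. Pattern neighbours were the 3 nearest rows, from CPM with a prior count of 2, leaving out rows below a mean of 1 CPM. Rows with a clone-based, LINC, LOC, MIR or pseudogene-like name were also left out. RLE or upper-quartile factors, DESeq2 1.42.0, voom (limma 3.58.1), 2 other filters, a replicate block, smaller fits, other overlap limits and omission of each library served as alternatives. Some named rows and 1 sequence are not reported here.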

Additional observations from a re-analysis of the deposited data

Results flagged for a closer look

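For 16 rows the change against WT differed between KO1 and KO2 in the edgeR quasi-likelihood test of the lines against each other (Benjamini-Hochberg adjusted p under 0.05), which called 20.4% of all tested rows. They come from the rows outside the 9 that were named by rule, described around the loci or given as markers. The size of that pool is not given, so the 16 cannot be set against the 20.4%. The values are KO1 minus KO2 on the log2 scale. Among rows over genes of the lists, CLMAT3 over SPARC differed by -3.02, AL445209.1 over POU4F1 by -0.49, ELP4 over PAX6 by -0.32, AL512380.2 over SOX4 by 0.28, AL050404.1 over KCNG1 by 0.27 and AC027228.2 over CHRNA5 by 0.20. Among own rows, DBH differed by -1.85, KCTD12 by -1.01, RBFOX3 by -0.68, ITPR3 by -0.52, CRMP1 by -0.23, CHRNA3 by 0.48 and REST by 0.56. Near CHRM3, AL365184.1 differed by -1.30 and FMN2 by -0.90, and MAF, a row like NCAM1-AS1, by -0.55. For CLMAT3 and REST the lines moved to opposite sides of WT, while for the rows over SOX4, POU4F1 and CHRNA5 both lines moved the same way to different extents. NHLH2, FSTL5 and AC027451.1 are left out because their difference between the lines chose them, as are the rows picked for likeness to NHLH2 and FSTL5.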

How the results depend on the processing

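Rows called in both lines numbered 1916, and 1272 with DESeq2. List genes called in both lines through a row over them numbered 11, and 7 when 300 shared bases were required. Leaving out 1 library gave 1468 to 1851 rows called in both lines, with the lowest counts without a WT library. With the replicate number as a block, 1822 rows were called in both lines, of which 1813 were shared with the fit without it. The numbers do not pair the samples, since deviations of same-numbered libraries correlated at -0.0286, -0.0206 and -0.0206. No named row reversed a call under any alternative run, but calls of named rows in 1 line were lost: 7 with DESeq2, 5 with limma-voom, 5 with no filter, 3 with the compared libraries alone, 2 with the CPM filter and 1 with upper-quartile factors. With the replicate block 4 were lost, all in KO1: CRMP1 (adjusted p = 0.0609), ELP4 (0.0513), KDM1A (0.0552) and POU3F2 (0.0547). Rows with few reads limit the depth: CHRM3-AS2, INSM1, AC027451.1 and the NCAM1 row rest on under 100 reads per library, and 2 WT libraries set the baseline of every comparison.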
